A study of Mus musculus with 12 samples.

Results

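Levels of 10 genes that encode secreted antagonists of bone morphogenetic protein (BMP), hedgehog and Wnt signals were followed in mouse retinal pigment epithelium (RPE), a sheet of pigmented cells that supports the photoreceptors. They are Nog, Chrd, Fst, Grem1 and Wfikkn2 on the BMP and activin side, Hhip for hedgehog, and Dkk3, Sfrp1, Sfrp5 and Frzb for Wnt. They were taken by symbol from the 27179 genes of the deposited tables, and were selected on their role and on the measured difference between 5 and 22 months in these mice, so their age differences are given as a description with no p-value. The RPE came from male wild-type C57BL/6J mice bought from Charles River Laboratories, 3 of them 5 months old and 3 of them 22 months old. Each eye was its own library, 12 in all, and mice 1 and 2 of each age formed batch 1 while mouse 3 of each age formed batch 2. The labels give no transgene and no treatment for any mouse. The RPE was freed from the eyecup by enzymes, so RNA of neighboring cells could be carried along. Counts of both eyes of a mouse were summed, so n = 3 mice per age throughout. Levels are CPM, counts brought to a common library size with the TMM factors of edgeR.

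BMPs, hedgehogs and Wnts are secreted signals that pattern the eye in development and that adult tissue goes on using. Each is held in check outside the cell by soluble proteins that bind the signal itself or its receptor, which limits how far the signal reaches. In the eye, BMP and Wnt signals help to specify the RPE, and hedgehog proteins from retinal neurons act on neighboring cells.

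The libraries held 9758665 to 13217909 counts at 5 months and 9171131 to 12324029 at 22 months. All 15 RPE markers examined, such as Rpe65, were detected, and their summed level was 24300 to 47443 CPM at 5 months and 8576 to 42707 CPM at 22 months. The summed level of 15 rod photoreceptor markers ran from 823 to 6378 CPM at 5 months and from 1645 to 28611 CPM at 22 months, and 14 of the 15 were called higher. Choroidal melanocyte markers went the other way, with 4 of 6 called lower and summed levels of 1008 to 1282 CPM against 491 to 930 CPM. The medians of the age log2 fold changes were -0.68 for the RPE list, 1.65 for the rod list and -0.71 for the melanocyte list, against -0.01 for all 14219 genes tested. Of the 15 RPE markers, 14 had a value below 0, but only 1 was called lower. Of the other lists, bipolar and amacrine markers had a median of 1.47 (6 of 14 called higher), surface epithelium markers 2.90 (3 of 7 called higher) and oligodendrocyte markers -1.12 (2 of 6 called lower). The part of these other cell types in the values below was not tested, and in bulk RNA fewer cells of a type and less RNA per cell cannot be told apart.

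The members differed widely in level per length of exon. Dkk3 was the most abundant at both ages, at 224 ± 32.3 CPM per kb (SD, n = 3) at 5 months and 200.3 ± 49.2 at 22 months. At 5 months it was followed by Wfikkn2 at 111 ± 8.97, Sfrp1 at 54.7 ± 6.30, Nog at 46.8 ± 7.98 and Sfrp5 at 34.1 ± 3.30 CPM per kb. Of these neighbors only Sfrp1 and Nog overlapped between mice, and Nog, at 39.4 or more, lay just above Sfrp5, at 37.3 or less. A lower tier held Chrd, Frzb and Hhip, at 4.49, 4.06 and 3.61 CPM per kb, with overlap between neighbors, and below them Fst at 1.73. Grem1 was close to absent at 0.019 CPM per kb. At 22 months Sfrp5, at 18.8 ± 5.79, stood above Nog, at 17.0 ± 6.70, although their mice overlapped, and Hhip, at 1.06 ± 0.208, lay below Fst, at 2.50 ± 0.368, with no overlap between mice.

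**Figure D1:**
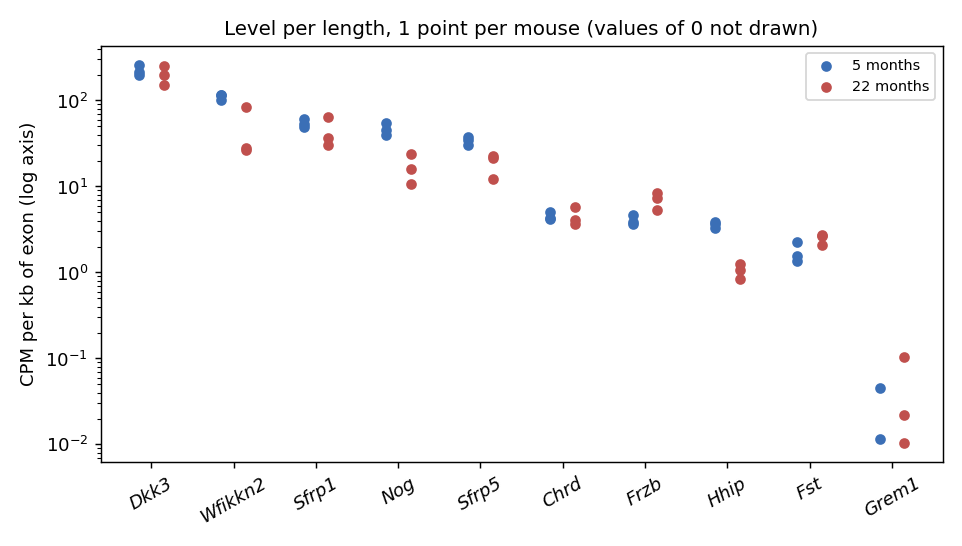
Level of each of the 10 antagonist genes in CPM per kb of exon on a log axis, with 1 point per mouse, 5 months in blue and 22 months in red; the 5-month mouse with no Grem1 read is not drawn. Dkk3 lay between 151 and 260 in all 6 mice, and Hhip went from 3.30 to 3.85 at 5 months to 0.847 to 1.26 at 22 months.

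Promoter sequence was matched in RefSeq (GRCm38.p6) for 6 of the 10 genes: Hhip, Sfrp5, Wfikkn2, Chrd, Grem1 and Frzb. The 250 bases before the start of Hhip and Sfrp5, which had lower levels at 22 months, are shown with those of Chrd, whose mean level was the same at both ages, to let their base composition be compared. CG pairs are in capitals, and each sequence is written 5′ to 3′ on the strand of its gene. The windows are chr8:80058009-80058258 on the minus strand for Hhip, chr19:42202253-42202502 on the minus strand for Sfrp5 and chr16:20732877-20733126 on the plus strand for Chrd.
Hhip promoter: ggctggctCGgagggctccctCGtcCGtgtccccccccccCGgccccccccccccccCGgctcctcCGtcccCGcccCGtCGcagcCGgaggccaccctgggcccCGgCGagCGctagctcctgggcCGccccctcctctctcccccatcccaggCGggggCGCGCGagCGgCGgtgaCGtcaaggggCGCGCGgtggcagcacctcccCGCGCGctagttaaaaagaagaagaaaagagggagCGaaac
Sfrp5 promoter: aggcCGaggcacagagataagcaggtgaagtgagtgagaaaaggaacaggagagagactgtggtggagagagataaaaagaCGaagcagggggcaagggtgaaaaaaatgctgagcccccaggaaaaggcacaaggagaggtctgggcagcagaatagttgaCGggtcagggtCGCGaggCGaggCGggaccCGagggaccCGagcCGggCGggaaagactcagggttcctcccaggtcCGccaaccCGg
Chrd promoter: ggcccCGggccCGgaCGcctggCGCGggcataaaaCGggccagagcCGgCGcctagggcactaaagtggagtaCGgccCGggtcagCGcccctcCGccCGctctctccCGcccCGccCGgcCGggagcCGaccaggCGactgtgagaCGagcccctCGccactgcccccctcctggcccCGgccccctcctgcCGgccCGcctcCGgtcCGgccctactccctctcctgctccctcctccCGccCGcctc
Hhip and Chrd each held 28 CG pairs in this window and Sfrp5 held 13, against a median of 6 over 32851 promoters of the same length. Their GC content was 76.0%, 78.0% and 59.6%, against a median of 52.4%. Letters of 5 motifs were searched on both strands: GACCACCCA (GLI), CTTTGAT (TCF/LEF), GGCGCC (SMAD), TCANGTG (MITF) and TAATCC (OTX2). The only matches in the 6 members were GGCGCC in Chrd, 203 to 198 bases before the start, and in Grem1, 78 to 73 bases before it, and 9.59% of all promoters hold those letters. The shares of all promoters with the other motifs were 0.225% for GLI, 3.21% for TCF/LEF, 12.2% for MITF and 6.25% for OTX2. Wfikkn2, also lower at 22 months, held 3 CG pairs, below the median. Its window, chr11:94242580-94242829 on the minus strand, lies inside the span that GENCODE gives for the gene, chr11:94235956-94246005. It may thus not be the sequence before the start used here, and no CG pattern of the lower members is read from it.

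Nog encodes noggin, which binds BMP ligands and keeps them from their receptors, and is a gene of a single exon (chr11:89300638-89302332). Its level was 66.8, 93.7 and 77.3 CPM in 5-month mice 1, 2 and 3, and 18.3, 27.2 and 40.8 CPM in 22-month mice 1, 2 and 3. The lowest young mouse thus stood above the highest old one, and the means were 79.3 ± 13.5 and 28.8 ± 11.4 CPM, a ratio of 2.76. The separation also held for single eyes, since the lowest 5-month library had 58.1 CPM and the highest 22-month library 43.8 CPM. The fitted log2 fold change was -1.52 (SE 0.26). Within batch 1 the difference of log2 levels was -1.83 and within batch 2, with 1 mouse per age, it was -0.92.

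Wfikkn2 encodes a secreted protein with several protease-inhibitor domains that binds myostatin and GDF11 (chr11:94235956-94246005, 2 exon blocks). It was the second most abundant member, with 353, 403 and 412 CPM in the 5-month mice and 98.7, 92.8 and 298 CPM in 22-month mice 1, 2 and 3. The mice of the ages did not overlap, but the old mouse of batch 2 lay far nearer to the young mice than the old mice of batch 1 did. Means were 389 ± 31.5 and 163 ± 117 CPM, a ratio of 2.39, and the fitted log2 fold change was -1.48 (SE 0.32). Within batches the difference was -1.98 in batch 1 and -0.47 in batch 2. Single eyes overlapped, with 308 CPM in the lowest 5-month library and 311 CPM in the highest 22-month library.

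Chrd, for chordin, another BMP-binding protein (chr16:20733127-20742384), did not follow Nog. It had 16.2, 19.9 and 16.8 CPM at 5 months and 14.3, 16.1 and 22.5 CPM at 22 months, and the ages overlapped. Its means were 17.6 ± 1.94 and 17.6 ± 4.30 CPM, with a log2 fold change of -0.02 (SE 0.17) whose sign turned under 6 of the 19 alternatives. Fst, for follistatin, the activin-binding protein (chr13:114452290-114458951), had 6.49, 4.36 and 3.86 CPM at 5 months and 5.89, 7.78 and 7.60 CPM at 22 months, which overlapped, with a log2 fold change of 0.55 (SE 0.24). Grem1, for gremlin 1, a BMP antagonist of the DAN family (chr2:113746164-113758646), had 0 to 7 reads per library, below the limit for testing, so no age difference could be detected at this depth. Of the BMP and activin antagonists, Nog and Wfikkn2 were thus lower in the old mice, and Chrd and Fst were not.

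Hhip encodes the hedgehog-interacting protein, which binds hedgehog ligands at the cell surface and outside the cell, and is itself induced by hedgehog signaling (chr8:79965851-80058006, 13 exon blocks). It had 35.0, 33.5 and 30.0 CPM in the 5-month mice and 9.60, 11.5 and 7.69 CPM in the 22-month mice. The lowest young mouse had more than the highest old one by a wide margin, and the means were 32.8 ± 2.57 and 9.58 ± 1.89 CPM, a ratio of 3.42. All 6 young eyes lay above all 6 old eyes, at 28.2 CPM or more against 11.95 CPM or less. The log2 fold change was -1.79 (SE 0.11), and -1.70 within batch 1 and -1.96 within batch 2. Each library held 73 to 388 Hhip reads.

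The Wnt antagonists were mixed. Sfrp5, a secreted frizzled-related protein, so named because it carries the Wnt-binding domain of the frizzled receptors (chr19:42197971-42202252), had 58.4, 65.2 and 71.0 CPM at 5 months and 23.1, 40.9 and 43.2 CPM at 22 months. The mice did not overlap, nor did single eyes, with 52.8 CPM as the lowest young and 49.7 CPM as the highest old library, and the ratio of the means was 1.82. Its log2 fold change of -0.87 (SE 0.21) was not called over the 14219 genes. Sfrp1, a related protein (chr8:23411502-23449632), had 231, 216 and 269 CPM at 5 months and 133, 162 and 280 CPM at 22 months. Here the ages overlapped through the old mouse of batch 2, the highest of all 6, and the difference was -0.61 in batch 1 and 0.06 in batch 2.

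Frzb, also called Sfrp3 (chr2:80411970-80447625), was the member with higher levels in the old mice. It had 11.5, 12.2 and 14.8 CPM at 5 months and 23.3, 26.5 and 16.9 CPM at 22 months, with no overlap of mice or of single eyes, for which the limits were 14.8 and 15.3 CPM. The means were 12.8 ± 1.73 and 22.3 ± 4.86 CPM, a ratio of 1.74, and the log2 fold change was 0.78 (SE 0.20). The difference was 1.07 in batch 1 and 0.20 in batch 2. Dkk3, a divergent member of the dickkopf family (chr7:112116017-112159057), had 727, 660 and 873 CPM at 5 months and 672, 508 and 838 CPM at 22 months. The ages overlapped and the log2 fold change was -0.18 (SE 0.13). With the left eyes alone the values of Dkk3 and Sfrp1 turned to 0.06 and 0.06, and edgeR then called 1.25% of genes, Nog and Hhip among them.

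**Figure D2:**
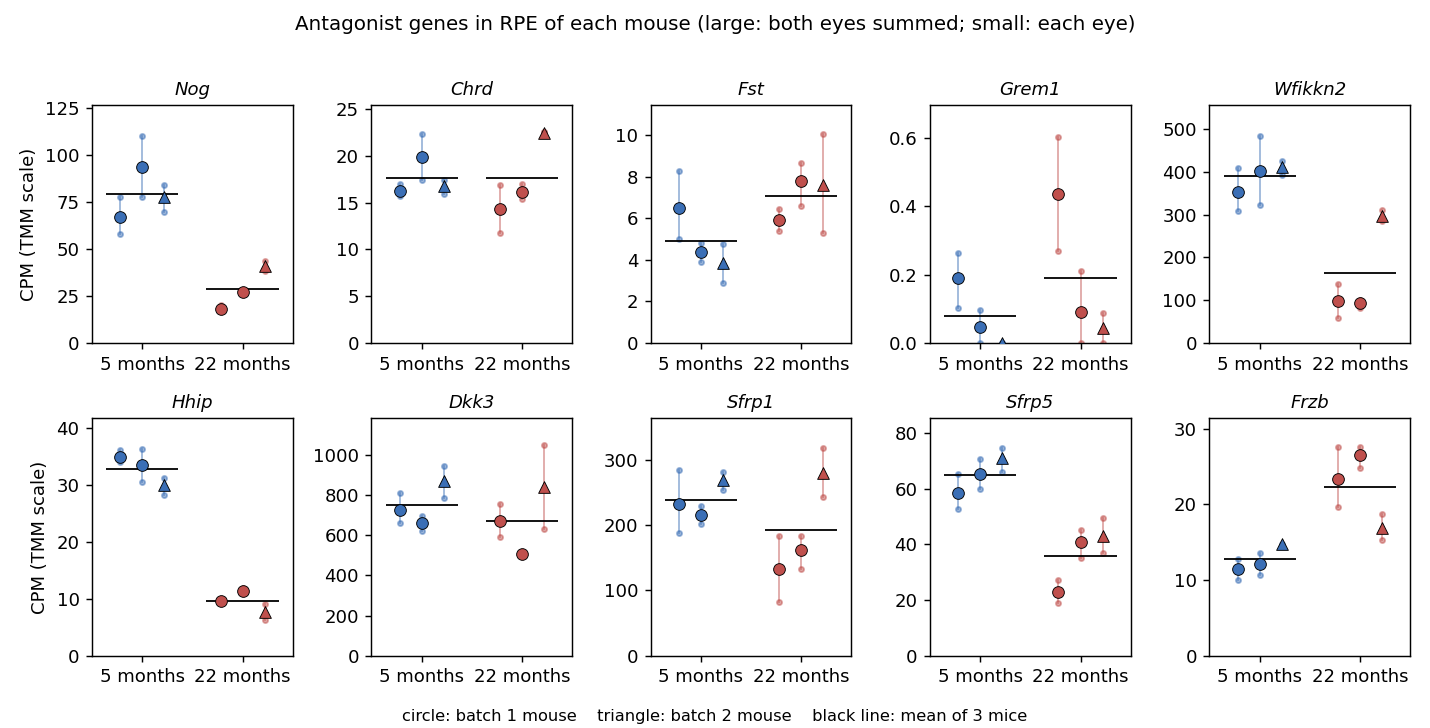
Level in CPM of the 10 antagonist genes at 5 months (blue) and 22 months (red); large symbols are mice with both eyes summed, circles for batch 1 and triangles for batch 2, small points joined by a line are the eyes, and black lines are means of 3 mice. Nog, Wfikkn2, Hhip and Sfrp5 of the old mice lie below all young mice, Frzb lies above them, and the old batch 2 mouse of Wfikkn2 stands at 298 CPM.

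Of the 9 members that passed the filter on low counts, edgeR called 3 lower (Nog, Hhip and Wfikkn2) and 0 higher, where 2.26% of all genes tested were called lower and 5.41% higher. The mice of the ages did not overlap for 4 members that were lower and 1 that was higher, where this held for 6.6% and 6.19% of all genes. The median log2 fold change of the 9 was -0.38 and 7 were below 0. Nothing is read from these counts, since this contrast chose the genes. DESeq2 on mouse sums called 5 of the 9 and 16.6% of all genes, with Sfrp5 lower and Frzb higher besides the 3. With the mouse number as a block, edgeR called Nog, Hhip and Sfrp5 but not Wfikkn2, and 5.82% of genes. The calls depended on single mice. Without 22-month mouse 1 or mouse 2, edgeR called 0 of the 9 members, and 0.0281% and 0.00703% of genes. Without 5-month mouse 1 or mouse 2 it called Hhip alone of the members, and 2.86% and 0.731% of genes. Without mouse 3 of either age 5 members were called, with Sfrp1 lower and Frzb higher in addition, and 21% of genes. Here and below, the batch term then takes up the remaining mouse of batch 2. Both settings thus rest on the 4 mice of batch 1 and are not separate checks. In the gene lists below, counts of calls with a mouse left out belong beside these shares of all genes, which the same settings gave.

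**Figure D3:**
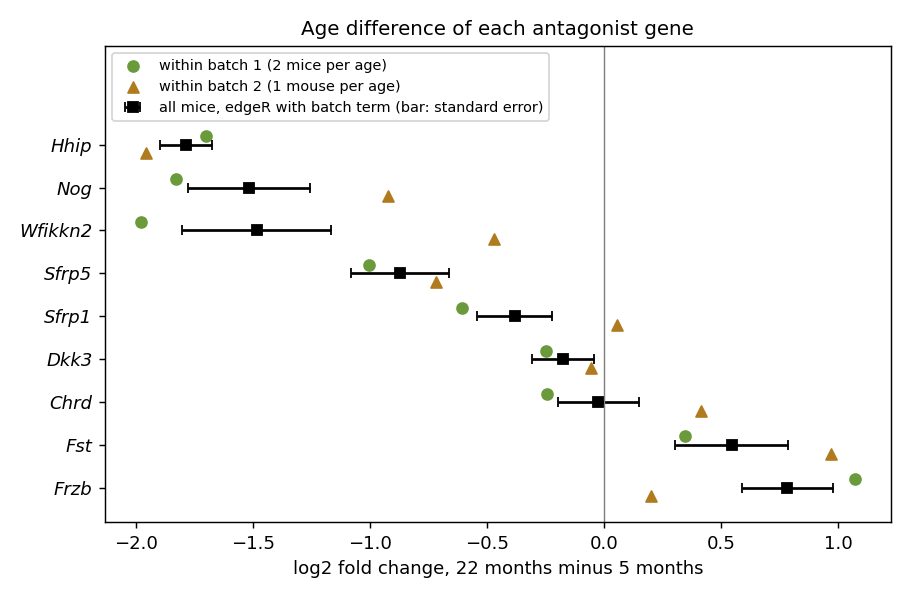
Log2 fold change, 22 minus 5 months, of the 9 tested antagonist genes; black squares are the edgeR fit with a batch term and bars its standard error, green circles the difference of mean log2 CPM within batch 1 and brown triangles that within batch 2. Hhip lies between -1.70 and -1.96 in all of them, and Wfikkn2 spreads from -1.98 to -0.47.

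Whether the age difference itself differed between batches was fitted with an interaction term, added after the data were seen. Batch 2 holds 1 mouse per age, so the spread comes from the mice of batch 1 alone, and the members were chosen on the age difference that this term divides, so their values are a description. The interaction was 1.51 on the log2 scale (SE 0.17) for Wfikkn2 and -0.88 (SE 0.19) for Frzb. In edgeR no gene of the 14219 was called (0%), no member among them, although 2374 had an unadjusted p under 0.05. DESeq2 called 1.61% of genes, with Wfikkn2 as the only member. The batch-corrected values that the authors deposited held a smaller gap: in log2 of the normalized value plus 1, Wfikkn2 differed by -1.45 in batch 1 and -1.32 in batch 2, and Frzb by 0.75 and 0.58. In Hhip the corrected values were -1.94 and -1.75, and in Nog -1.48 and -1.35. The correction was made to bring the batches together, so nothing on the interaction is read from these gaps.

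The batch itself, which the choice of genes did not use, also moved some members. In the edgeR fit Sfrp1 was higher in batch 2 by 0.61 (SE 0.17, adjusted p = 0.0246) and Dkk3 by 0.42 (SE 0.14, adjusted p = 0.0439), and 51.9% of all genes were called for batch. A call for 2 of 9 members was thus a smaller share than among all genes. Wfikkn2 was higher in batch 2 by 0.94 (SE 0.32) with an adjusted p of 0.0506, and Hhip differed by -0.31 (SE 0.12) with an adjusted p of 0.0653, neither of which passed in edgeR. DESeq2 called Wfikkn2 as well, and 51.6% of genes. Neither Dkk3 nor Sfrp1 was called without 22-month mouse 2, a setting that called 42.6% of all genes for batch. Without 22-month mouse 3, which leaves a single mouse in batch 2, Dkk3 differed by 0.33.

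No member was called for a difference between right and left eyes by edgeR with the mouse as a block, nor was any of the 14219 genes (0%; 132 had an unadjusted p under 0.05), and DESeq2 called 0 members and 0 genes too. The largest fitted difference among the members was that of Nog, 0.21 (SE 0.098, unadjusted p = 0.0669, adjusted p = 1), higher in the right eye of 5 of 6 mice. Hhip differed by 0.19 (SE 0.078, unadjusted p = 0.0385, adjusted p = 1), higher in the right eye of 6 of 6 mice. Between the eyes of a single mouse, Wfikkn2 differed by up to 1.23 and Sfrp1 by up to 1.16 on the log2 scale, while Nog and Hhip differed by no more than 0.50 and 0.53.

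The members were then set against the RPE markers, whose level varied between libraries. After the mean of each age in each batch was subtracted, log2 levels over the 12 libraries correlated with the RPE marker score (the mean log2 CPM of its 15 genes) at r = 0.90 for Sfrp5, 0.89 for Sfrp1, 0.80 for Chrd, 0.79 for Wfikkn2 and 0.74 for Nog. For Fst r was 0.21, for Hhip 0.16, for Dkk3 -0.02 and for Frzb -0.41. With the rod score r was -0.77 for Wfikkn2 and -0.70 for Nog, and with the bipolar and amacrine score -0.78 and -0.79. Wfikkn2 also correlated with the macrophage score, at 0.83. The highest value for Hhip was 0.62, with the endothelium score. These points share libraries and their depth, and both eyes of 6 mice are among them, so they are a description. Among the members themselves the highest values were 0.81 for Wfikkn2 with Sfrp1 and 0.77 for Sfrp1 with Sfrp5. By the size of r, Hhip and Dkk3 thus tracked the RPE markers least, while Frzb ran against them.

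Set relative to the RPE score, the mice of the ages did not overlap for 5 genes: Nog, Wfikkn2 and Hhip, which were lower at 22 months, and Chrd and Frzb, which were higher. Nog minus the score was -3.97 to -3.34 in the young mice and -4.61 to -4.39 in the old ones, and Wfikkn2 was -1.56 to -1.19 and -2.62 to -1.74. Hhip was -5.34 to -4.52 in the young and -7.01 to -5.37 in the old mice, so the nearest mice of the ages were close. Sfrp5 overlapped, at -4.10 to -3.78 and -4.53 to -3.80. For Chrd and Frzb the mean differences on this scale were 0.65 and 1.46, so for Chrd the picture depended on the scale. With the rod score as a covariate and each eye as a sample, Nog went to -1.05, Wfikkn2 to -0.90 and Hhip to -1.66, and voom in limma called Nog and Hhip among the members, with 1.4% of all genes. When the 3 libraries with the most extreme rod scores were left out, a choice made after the data were seen, the calls were Nog, Hhip and Sfrp5, and 4.68% of genes.

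**Figure D4:**
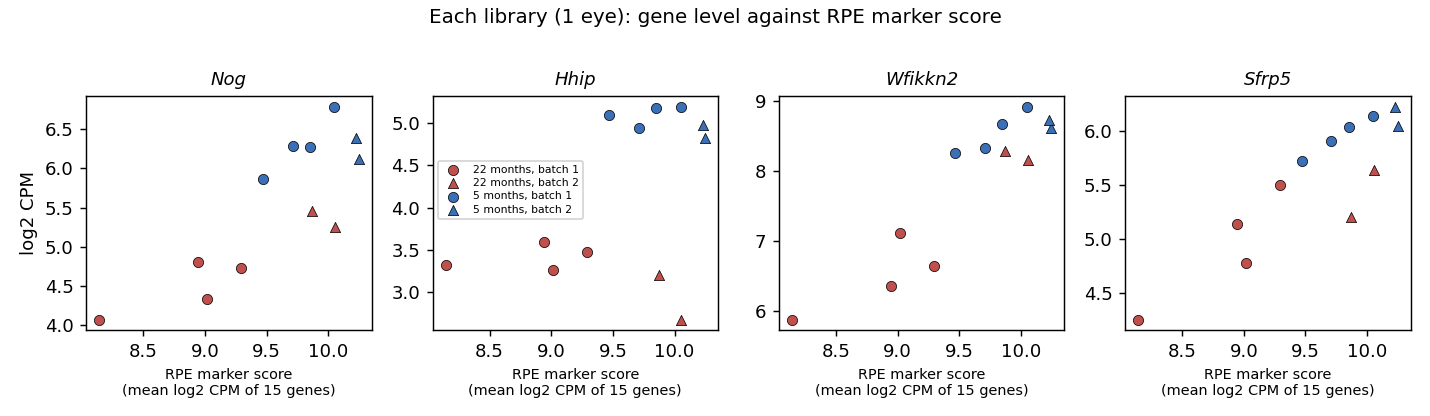
Log2 CPM of Nog, Hhip, Wfikkn2 and Sfrp5 in each of the 12 libraries (1 eye each) against the RPE marker score, the mean log2 CPM of 15 RPE genes; color gives age and shape the batch. Nog, Wfikkn2 and Sfrp5 are higher where the score is higher, and lowest in the 22-month eye with a score of 8.14, while Hhip lies in separate bands by age.

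The genes whose pattern over the 12 libraries was most like that of a member, after the same subtraction, were Sntb1 (r = 0.99) and Fam107a (0.98) for Sfrp1, Dusp4 and Pdgfa (both 0.98) for Sfrp5, and Dusp18 (0.98) and Uap1l1 (0.97) for Wfikkn2. For Nog they were Nus1 and Cyb5rl (both 0.94), and for Hhip Nfkb2 (0.95) and Igkc (0.92). For Chrd they were Mocs2 (0.97) and Mettl21a (0.96), for Fst Alkbh3 and Fis1 (both 0.95), for Dkk3 Gpr165 (0.96) and Mterf4 (0.95) and for Frzb Tbl2 (0.96) and Kpna4 (0.94). Each was picked as the highest among 14219 genes over only 12 libraries, with both eyes of a mouse among them. So wide a search can give high values by itself, so they are a description and no shared regulation is read from them. By age, Nus1 had a log2 fold change of -0.21 and Nfkb2 of -0.20, against -1.52 and -1.79 for Nog and Hhip, whereas Sntb1 (-0.45) and Fam107a (-0.44) lay near the -0.38 of Sfrp1. Some of these genes went the other way from their member by age. They were Igkc (2.41) for Hhip, Gpr165 (0.60) and Mterf4 (0.30) for Dkk3, Alkbh3 (-0.04) and Fis1 (-0.07) for Fst, and Kpna4 (-0.06) for Frzb. The rest had the sign of their member.

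Other secreted antagonists, 21 genes listed by role, of which 13 were tested, were called lower in 1 and higher in 4 cases, with a median of 0.13. Dkk2, a Wnt co-receptor antagonist, fell by 0.60 on the log2 scale (SE 0.11, edgeR adjusted p = 0.0362), from 60.5, 50.0 and 67.8 CPM to 32.2, 37.0 and 49.0 CPM, but its adjusted p was 0.0560 with the mouse number as a block and 0.307 with the rod score as covariate. Chrdl1, a chordin-like BMP antagonist, rose by 1.19 (SE 0.10, adjusted p = 0.0195), from 25.6, 22.0 and 22.2 CPM to 48.0, 55.9 and 55.0 CPM. Sfrp2 rose by 1.41 (SE 0.19, adjusted p = 0.0265), from 83.1, 59.5 and 42.3 CPM to 172, 238 and 95.2 CPM. Sost, the gene of sclerostin, was also called, at 1.72, and was named after its value was seen. In the same old mice Nog was low while Chrdl1 was high, and Sfrp5, which was not called, was low while Sfrp2 was high. Both genes of each pair were picked on this age contrast, so nothing is read from the pairing. Of this list edgeR called 0 genes without 22-month mouse 1 or mouse 2, 2 and 1 without 5-month mouse 1 and mouse 2, and 6 without mouse 3 of either age.

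The signals that Nog and Chrd bind were looked at next. Of 45 BMP and activin pathway genes, 35 were tested, 2 were called lower and 4 higher, and the median was -0.01, as for all genes. Bmp4, a ligand that noggin binds, fell by 0.96 (SE 0.20, adjusted p = 0.0485 by edgeR), from 141, 179 and 223 CPM to 58.2, 82.4 and 155 CPM. The ages overlapped there, since the old mouse of batch 2 again stood above the lowest young one. The ligands Bmp2, Bmp6 and Bmp7 did not pass the test, with values of -0.59, -0.37 and -0.46. Among the intracellular parts, Smad5 fell by 0.35 (SE 0.068, adjusted p = 0.0425) and Smad9 rose by 0.37 (SE 0.060, adjusted p = 0.0321), which became 0.0526 and 0.0519 with the mouse number as a block, and Tll1, a tolloid-like protease that in vertebrates cleaves chordin, rose by 0.95 (SE 0.15, adjusted p = 0.0313). Id2, a BMP target, was called at 0.55 and Gdf10 at 1.36, both named after their values were seen, whereas the targets Id1, Id3 and Id4 did not pass, at -0.34, 0.12 and 0.05. With the rod score as covariate, a setting that called 1.4% of all genes, the calls of Bmp4, Smad5, Tll1 and Id2 were lost, at -0.63, -0.25, 0.89 and 0.74. The ages overlapped for Smad9, Tll1 and Id2 too. The calls were 0 without 22-month mouse 1, 22-month mouse 2 or 5-month mouse 2, 1 without 5-month mouse 1, and 11 or 10 without mouse 3 of the 22- or 5-month group.

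Hhip belongs to the hedgehog pathway, of which 21 of 25 other genes were tested, with 3 called lower, 3 higher and a median of -0.03. Gli1, the transcription factor that is itself a target of hedgehog signaling, fell by 0.75 (SE 0.10, edgeR adjusted p = 0.0267), from 26.9, 32.5 and 32.03 CPM to 18.8, 16.6 and 18.9 CPM, so that no old mouse reached a young one. Gpc3, a glypican that binds hedgehog at the cell surface, fell by 1.17 (SE 0.12, adjusted p = 0.0195), from 262, 271 and 322 CPM to 101, 110 and 181 CPM. The receptor gene Ptch1, another target of the pathway, did not pass, at -0.43 (adjusted p = 0.0633). Among the genes that rose were the co-receptors Gas1, by 0.61 (SE 0.10, adjusted p = 0.0328), and Boc, at 0.49 (named after its value was seen), and Disp2, of the dispatched family, by 1.78 (SE 0.30, adjusted p = 0.0341). Disp2 went from 18.8, 11.7 and 3.41 CPM to 72.8, 55.7 and 6.47 CPM, with overlap of the ages. With the rod score as covariate its value was 0.75 and its call by voom was lost (adjusted p = 0.125), in a setting that called 1.4% of all genes. Of the ligands, Ihh (-0.26) and Dhh (0.64) did not pass, and Shh was too low to be tested. The calls were 0 without 22-month mouse 1 or mouse 2, 2 and 1 without 5-month mouse 1 and mouse 2, and 10 without mouse 3 of either age.

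In the Wnt pathway 46 of 63 genes were tested, with 3 called lower, 2 higher and a median of -0.14. Wnt2b, a ligand known from the ciliary margin and RPE of the developing eye, fell by 1.03 (SE 0.15, edgeR adjusted p = 0.0280), from 25.5, 23.7 and 23.1 CPM to 15.1, 11.6 and 9.21 CPM. The receptor gene Fzd8 fell by 0.55 (SE 0.10, adjusted p = 0.0405) and Fzd4 was called at -0.74 (named after its value was seen), whereas Fzd5 rose by 0.82 (SE 0.13, adjusted p = 0.0307), from 48.8, 64.3 and 28.7 CPM to 98.4, 113 and 45.2 CPM, with overlap of the ages. All 3 are receptors of the family whose Wnt-binding domain Sfrp1, Sfrp5 and Frzb resemble. Lgr5, an R-spondin receptor, rose by 1.35 (SE 0.21, adjusted p = 0.0313), but from 4.07, 2.89 and 0.853 CPM to 9.91, 7.46 and 2.30 CPM, with overlap of the ages. With the rod score as covariate, a setting that called 1.4% of all genes, the calls of Fzd8, Fzd4, Fzd5 and Lgr5 were lost, at -0.38, -0.42, 0.64 and 0.44. Axin2, a Wnt target, did not pass, at -0.30. DESeq2 on mouse sums called 13 Wnt genes, 8 lower and 5 higher, a setting that called 16.6% of all genes. With edgeR the calls were 0 without 22-month mouse 1, 22-month mouse 2 or 5-month mouse 2, 2 without 5-month mouse 1, and 12 without mouse 3 of either age.

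**Figure D5:**
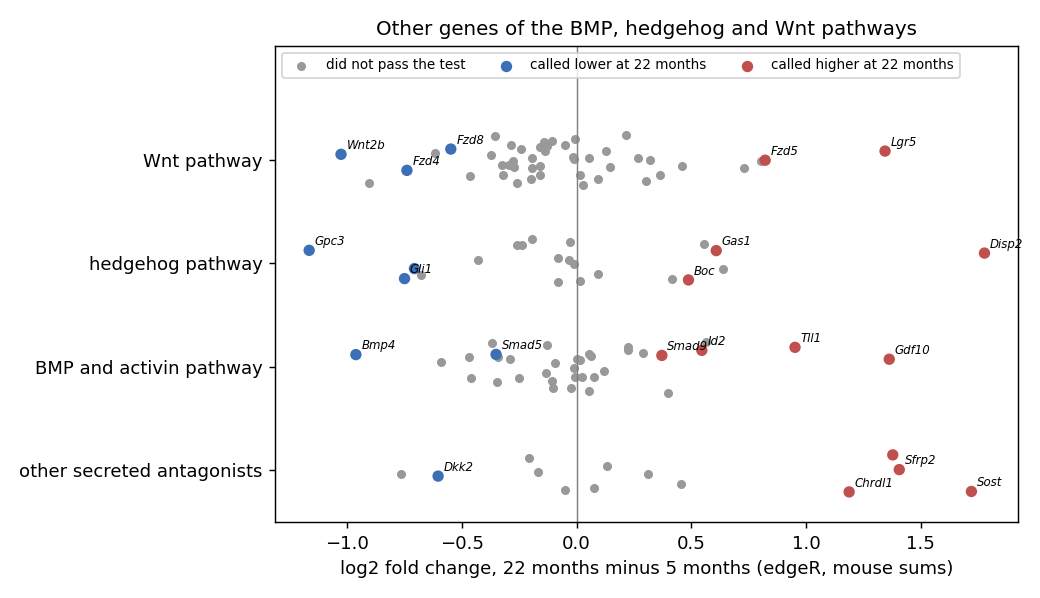
Log2 fold change, 22 minus 5 months, of every tested gene in 4 lists; 1 point per gene, gray where the edgeR test was not passed, blue where called lower and red where called higher, with points spread vertically for legibility and the genes named in the text labelled. Each list holds calls in both directions, from Gpc3 at -1.17 to Disp2 at 1.78.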

How the data were processed

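RNA of RPE from each eye was depleted of ribosomal RNA and made into stranded libraries. Per the labels and the paper, the authors used Trimmomatic, HISAT2 (mm10) and featureCounts; their versions, the annotation and the strand option are not stated, so reads of overlapping genes cannot be assigned with certainty. The deposited raw table holds counts per gene. The deposited batch-corrected table (ComBat-seq, by the authors) was treated as estimated counts. The deposited normalized table is a signal per gene, the corrected counts over a DESeq2 size factor. Of 27179 Entrez IDs, 25275 had a RefSeq symbol, 18 more a GENCODE symbol and 1886 neither. Gene positions and exon lengths are from GENCODE on GRCm38.

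Summed over both eyes, raw counts came to 20853656 to 26266140 per mouse. They were tested by quasi-likelihood in edgeR 4.0.16 under R 4.3.3 with TMM scaling and terms for batch and age (3 residual degrees of freedom), in the 14219 genes whose mean normalized value reached 20. A call needed both a Benjamini-Hochberg adjusted p below 0.05 and a log2 fold change larger than 0.25 in size. Standard errors follow from each fold change and F value. Log2 CPM used a prior count of 1. Batch came from the same fit, and eyes were compared with the mouse as a block. The p-values for age and batch on mouse sums measure the spread between these mice. Those for the eyes measure the spread of the differences between eyes within mice. Where each eye was a sample, the spread between eyes entered as well. The fit was tested on simulated data. Alternatives were DESeq2 1.42.0, voom in limma 3.58.1 with the mouse as random effect, other filters, no batch term, single eyes, the rod score as covariate, and leaving out each mouse.

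Members and gene lists were chosen with earlier results of these data known. All 10 members were named, of each list the called genes of lowest adjusted p (up to 4, and up to 2 in a direction), and for each tested member the 2 genes of highest correlation. Markers of 13 cell types were examined. Some called genes counted in the lists are not reported here by name. Same-numbered mice deviated from their group means together (r = 0.77, 0.61 and 0.85), and so did differently numbered mice of batch 1 (0.61 and 0.52). The numbers were therefore tried as a block, and what the labels say such mice share is the batch.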

Additional observations from a re-analysis of the deposited data

Results flagged for a closer look

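One library stood apart from its group. Chrd was at 22.4 CPM in the right eye of 5-month mouse 2, where the nearest of the other 5-month libraries had 17.4 CPM, a gap that was 0.709 of the whole range on the log2 scale, above Dixon's limit of 0.625 for 6 values. In all, 18 groups of 6 libraries were examined in this way, of which chance flags about 1 in 20.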

How the results depend on the processing

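Across 627 values of single genes under an alternative, 459 were counted as kept, 155 as a lost call, 7 as a gained one, 6 as moved and 0 as reversed from a called direction. Age values of members were judged only by whether they moved by less than the spread between mice. Calls that members lost or gained by age are thus not among the 155 and 7. Wfikkn2 counted as kept in all 19 alternatives, although left eyes alone, right eyes alone and the mouse-number block did not call it. The other values were judged by their side of the threshold. Of the members, Hhip kept to -1.89 to -1.66 over all alternatives, Nog to -1.82 to -1.05 and Wfikkn2 to -1.98 to -0.90. Member calls by age (3) became 5 with DESeq2 on mouse sums, with DESeq2 on batch-corrected counts of each eye and with the mouse as a random effect, 0 with no batch term and 1 with right eyes alone, settings that called 16.6%, 23.4%, 19.4%, 0.0141% and 0.0844% of all genes against 7.67%, and 0 to 5 with single mice left out. BMP calls (6) became 1 in left eyes, 0 in right eyes, 0 with no batch term, 2 with the rod covariate and 0 to 11 with mice left out. Hedgehog calls (6) became 3, 0 and 0 in left eyes, right eyes and with no batch term, and 0 to 10 with mice left out. Calls of other antagonists (5) became 2, 0 and 0 in the same order, 3 with the rod covariate and 0 to 6 with mice left out. Wnt calls (5) became 15 with DESeq2 on batch-corrected counts, 13 with DESeq2 on mouse sums, 12 with the random effect (the same shares of all genes apply), 0 in left eyes, 0 in right eyes, 0 with no batch term, 2 with the rod covariate and 0 to 12 with mice left out. Batch calls of members (2) became 1 with DESeq2 size factors, 0 in right eyes and 0 to 2 with a mouse of batch 1 left out. These settings called 51.9%, 33% and 42.6% to 48.7% of all genes for batch. Leaving out a mouse 3 leaves a single mouse in batch 2, so its counts are not given. The member interactions by age and batch (0) became 1 with DESeq2. With the mouse number as a replicate block the calls were 3 for members, of which 2 were shared, 4 for BMP, 5 for hedgehog, 4 for other antagonists and 5 for Wnt genes; the block changed no call of a named gene other than those of Wfikkn2, Sfrp5, Dkk2, Smad5 and Smad9. For the lists, left eyes alone called 1.25% of all genes, right eyes alone 0.0844%, no batch term 0.0141% and the rod covariate 1.4%, against 7.67%. The counts of a list thus shifted together with the calls over all genes, and the cause of these shifts was not tested. With 3 mice per age and 1 per age in batch 2, the depth of Grem1 and the spread between mice limit what can be called.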
